A study of Mus musculus with 6 samples.

Results

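The genes described here handle ATP, NAD and adenosine outside the cell. They are Entpd1, Nt5e, Adora2a, Ada, Dpp4, P2rx7, Cd38 and Art2b, 8 named genes among 38216 gene symbols, and all 8 passed the filter on low values, which asked for 1 TPM (transcript abundance scaled to a fixed total per library) in 2 libraries. The cells were splenic CD4+ T cells of naive C57BL/6 mice that carried the IL21-VFP reporter and were 28 days old. The reporter makes cells that transcribe Il21, a cytokine gene of follicular helper T cells, fluoresce with VFP. Cells of the ACT IL21 pool carried VFP and ICOS, a costimulatory receptor raised on activation, cells of the ACT pool carried ICOS without VFP, and cells of the N pool carried neither. Each pool was sequenced as 2 libraries, and nothing in the labels says that these came from separate animals, so p-values measure only the spread between libraries, which may be technical. The pools share the reporter allele, and a CD4+ gate also admits regulatory and NKT cells.

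Cells release ATP and NAD on stress, activation or death. Entpd1 encodes CD39, which removes phosphates from extracellular ATP and ADP, and Nt5e encodes CD73, which turns the resulting AMP into adenosine. Adenosine acts on T cells through the receptor encoded by Adora2a, which raises cAMP, and adenosine deaminase, encoded by Ada, inactivates it. Extracellular NAD is consumed by CD38 and by the surface ADP-ribosyltransferase encoded by Art2b. In mouse T cells that transferase modifies and opens the ATP-gated channel P2X7, the product of P2rx7, which sheds L-selectin from the surface and can kill the cell. ATP acting through P2X7 is known to limit follicular helper cells of mouse Peyer's patches.

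Both ICOS+ pools had much higher RNA levels of 4 of these genes than ICOS- cells: P2rx7, Nt5e, Cd38 and Entpd1. Art2b was also higher in ACT than in N, and Adora2a passed there by a narrow margin. Dpp4 and Ada did not pass in any comparison. By limma on log2(TPM + 1), adjusted over all 13311 genes tested, 4 of the 8 genes rose and none fell in ACT IL21 against N, where 5.09% of all genes were called, with 3.82% higher and 1.26% lower. In ACT against N 6 rose and none fell, where 5.58% of all genes were called, with 4.15% higher and 1.43% lower. Between ACT IL21 and ACT none of the 8 passed, where 1.95% of all genes were called, with 0.796% higher and 1.15% lower, and 2 of the 8 had an unadjusted p under 0.05, as did 1978 of the 13311 genes tested. The median log2 fold change of the 8 genes was 1.87 in ACT IL21 against N, where that of all genes tested was 0.10. It was 2.01 in ACT against N, where that of all genes was 0.02. Both comparisons use the same N libraries. The 8 genes were chosen with earlier results of these data known, so these counts and medians are not an independent test. In a bulk pool, fewer cells that express a gene and less RNA per cell cannot be told apart.

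**Figure D1:**
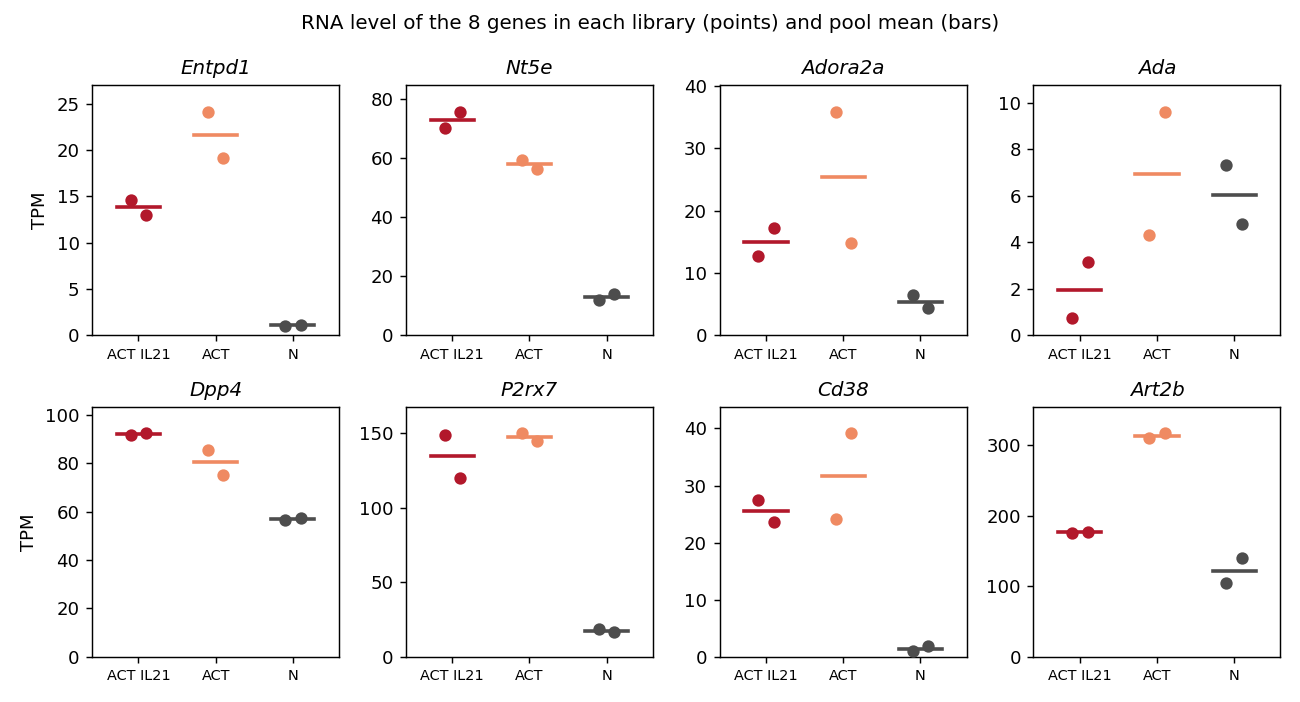
RNA level in TPM (vertical axis, from 0) of each of the 8 genes in the ACT IL21, ACT and N pools, with 1 point per library and a bar at the pool mean. P2rx7, Nt5e, Entpd1 and Cd38 lie far above N in both ICOS+ pools, while the Ada values of ACT and N overlap.

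The libraries were similar in breadth, with 12095 to 12396 gene symbols at 1 TPM or more. Icos was at 206 ± 29.5 TPM in ACT IL21, 248 ± 9.02 in ACT and 33.8 ± 2.65 in N (SD, n = 2), which matches the sort. Il21 reached 44.48 and 51.87 TPM in ACT IL21 and 0 and 1.26 TPM in ACT, and was listed at 0 in both N libraries. The defining CD4 T cell genes were present throughout, with Cd4 at 236.07 TPM or more in every library. Cd4 was not even across the pools. It was at 533.54 and 566.54 TPM in ACT IL21, 267.6 and 236.07 in ACT, and 357.93 and 315.56 in N. By limma, Cd4 rose in ACT IL21 against ACT (log2 fold change 1.13, adjusted p = 0.0103) and against N (0.71, adjusted p = 0.0301). Its value in ACT against N did not pass (-0.42, adjusted p = 0.158). Pax5, a defining B cell gene, was listed at 0 in all 6 libraries.

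The ATP-degrading enzyme gene Entpd1 (chromosome 19, 40612366 to 40741602, GRCm38, plus strand, protein-coding) was near 1 TPM in N cells. The ACT IL21 libraries had 14.60 and 13.02 TPM, the ACT libraries 24.12 and 19.17 TPM, and the N libraries 1.02 and 1.13 TPM. The 3 pools did not overlap, and ACT was the highest. Entpd1 rose against N by 2.83 ± 0.34 in ACT IL21 (log2 fold change ± SE, adjusted p = 0.00395) and by 3.44 ± 0.34 in ACT (adjusted p = 0.00125). The mean TPM of ACT IL21 was 12.8 times that of N, and the mean of ACT was 20.1 times that of N. Since N lay near the added 1 TPM, the size depends on the pseudocount: with 0.1 the log2 fold changes were 3.56 and 4.20, and with 5 they were 1.63 and 2.13, and all stayed past the threshold. Between ACT IL21 and ACT the difference was -0.61 (95% interval -1.39 to 0.18, adjusted p = 0.46), so the order of these pools was not separated from the spread.

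The adenosine-producing enzyme gene Nt5e (chromosome 9, 88327197 to 88372092, plus strand, protein-coding) had its highest mean in the reporter-positive cells. Its level was 70.22 and 75.69 TPM in ACT IL21, 59.26 and 56.39 TPM in ACT, and 11.98 and 13.81 TPM in N. Libraries of the 3 pools did not overlap. The log2 fold change against N was 2.41 ± 0.19 in ACT IL21 (adjusted p = 0.000626) and 2.08 ± 0.19 in ACT (adjusted p = 0.000914). ACT IL21 exceeded ACT by 0.33 (95% interval -0.12 to 0.78, adjusted p = 0.482), which did not pass. The balance between the 2 enzyme genes differed among the pools: the Nt5e level was 4.81 and 5.81 times the Entpd1 level in ACT IL21, 2.46 and 2.94 times in ACT, and 11.7 and 12.2 times in N. TPM is scaled per transcript length, so these ratios compare levels, and no test was made of them. In every library the Nt5e level was the higher of the pair.

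The adenosine receptor gene Adora2a (chromosome 10, 75316877 to 75334784, plus strand, protein-coding) varied widely within ACT. Its level was 12.63 and 17.20 TPM in ACT IL21, 35.86 and 14.81 TPM in ACT, and 6.45 and 4.29 TPM in N. Both ICOS+ pools lay above N without overlap, but the ranges of ACT IL21 and ACT overlapped. Adora2a rose in ACT against N (1.94 ± 0.45, adjusted p = 0.0479). The value in ACT IL21 against N was 1.33 ± 0.45 (adjusted p = 0.159). The call in ACT was lost without N replicate 1 (adjusted p = 0.143), N replicate 2 (0.275), ACT replicate 1 (0.137), ACT IL21 replicate 1 (0.080) or ACT IL21 replicate 2 (0.0811), and the log2 fold change was 1.33 without ACT replicate 1 and 2.55 without ACT replicate 2. Of 17 alternative settings, 5 kept it.

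Ada (chromosome 2, 163726584 to 163750239, minus strand, protein-coding), which removes adenosine, was the least abundant of the 8 genes in the ICOS+ pools. Its level was 0.74 and 3.13 TPM in ACT IL21, 4.30 and 9.62 TPM in ACT, and 7.32 and 4.78 TPM in N. ACT IL21 was below both other pools without overlap, and ACT overlapped N. The log2 fold change was -1.37 in ACT IL21 against N (95% interval -2.69 to -0.05, adjusted p = 0.25), -1.48 in ACT IL21 against ACT (-2.81 to -0.16, adjusted p = 0.281) and 0.11 in ACT against N (-1.21 to 1.43, adjusted p = 0.951). None of these passed, and the wide intervals leave changes of several-fold possible. Since Ada lay near the added 1 TPM in ACT IL21, its size depends on the pseudocount as well. In ACT IL21 against N it was -1.87 with 0.1 and -0.68 with 5. It was -0.75 without ACT IL21 replicate 1. Dpp4 (chromosome 2, 62330073 to 62412231, minus strand, protein-coding) encodes CD26, a surface peptidase that in humans also anchors adenosine deaminase. It was at 91.69 and 92.29 TPM in ACT IL21, 85.65 and 75.03 TPM in ACT, and 56.66 and 57.27 TPM in N. The pools did not overlap, yet the log2 fold changes of 0.68 in ACT IL21 (95% interval 0.31 to 1.05, adjusted p = 0.0546) and 0.49 in ACT (0.11 to 0.86, adjusted p = 0.145) against N did not pass. Dpp4 passed in ACT IL21 against N in 4 of 17 alternative settings. These were a filter of 5 TPM (adjusted p = 0.0462), only the 2 pools compared in the fit (0.0394), and leaving out either ACT replicate. It did not pass with, for example, quantile normalization (adjusted p = 0.1056) or no intensity trend (0.1685). An antisense gene, Gm13561, overlaps Dpp4, and the strand setting of the counting is not given, so reads of the overlap cannot be assigned with certainty.

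P2rx7 (chromosome 5, 122643911 to 122691432, plus strand, protein-coding) had the smallest p of the 8 genes against N in both ICOS+ pools. The channel gene had 148.72 and 120.15 TPM in ACT IL21, 149.84 and 144.64 TPM in ACT, and 18.46 and 16.73 TPM in N. Every ICOS+ library lay far above both N libraries, and the 2 ICOS+ pools overlapped. Its log2 fold change was 2.86 ± 0.18 in ACT IL21 against N (adjusted p = 0.00022), the 15th smallest p of all genes tested, and 3.0 ± 0.18 in ACT against N (adjusted p = 0.000101), the 24th smallest. ACT IL21 and ACT differed by -0.14 (95% interval -0.55 to 0.27, adjusted p = 0.767). P2rx4, the only other P2X channel gene that passed the filter on low values, was at 13.4 ± 2.84 TPM in ACT IL21, 19.9 ± 14.9 in ACT and 15.5 ± 4.74 in N, and its adjusted p was 0.904 in ACT IL21 against N.

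The upstream sequences of P2rx7 and Entpd1 are shown because both genes rose in both ICOS+ pools. Their nearest annotated starts in RefSeq (GRCm38.p6) and GENCODE M21 also lie at most 16 bases apart. For Nt5e and Cd38 the nearest RefSeq start lies 412 and 256 bases inside the GENCODE gene, so no window is shown. RefSeq lists 2 starts for P2rx7 and 2 for Entpd1. Only the start nearest the GENCODE gene start was used, and which start these cells use was not tested. Each sequence is the 250 bases before the RefSeq start, plus strand, 5′ to 3′, at chr5:122643677-122643926 for P2rx7 and chr19:40612116-40612365 for Entpd1. Capitals mark matches, on either strand, to 4 motifs: TGANTCA of AP-1, GGAAA of the NFAT core, TTCNNNGAA of STAT factors and TGTGGT of RUNX factors.
P2rx7: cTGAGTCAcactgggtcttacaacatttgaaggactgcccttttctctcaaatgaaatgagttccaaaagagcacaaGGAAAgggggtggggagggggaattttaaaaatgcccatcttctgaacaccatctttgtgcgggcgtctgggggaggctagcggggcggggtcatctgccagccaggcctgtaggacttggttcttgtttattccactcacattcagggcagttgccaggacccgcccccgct
Entpd1: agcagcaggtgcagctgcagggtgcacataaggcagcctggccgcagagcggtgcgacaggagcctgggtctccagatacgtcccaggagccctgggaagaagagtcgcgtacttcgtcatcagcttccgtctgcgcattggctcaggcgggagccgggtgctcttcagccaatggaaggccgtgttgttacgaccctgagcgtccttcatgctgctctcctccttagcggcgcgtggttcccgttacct
The P2rx7 window held 1 match to the AP-1 motif and 1 to the NFAT core, which do not overlap, and the Entpd1 window held none of the 4. Of 32851 RefSeq windows of this length, 6.7% held the AP-1 motif, 55.6% the NFAT core, 7.0% the STAT motif and 14% the RUNX motif. GC content was 53.6% for P2rx7 and 62.4% for Entpd1, and the median window had 52.4%. A match is a string of letters here and not a measured binding site.

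Cd38 (chromosome 5, 43868553 to 43912375, plus strand, protein-coding), the NAD-consuming ectoenzyme gene, was low in N and well above it in both ICOS+ pools. Its level was 27.54 and 23.62 TPM in ACT IL21, 24.15 and 39.11 TPM in ACT, and 1.03 and 1.84 TPM in N. The ICOS+ pools overlapped each other and not N. Cd38 rose by 3.46 ± 0.36 in ACT IL21 (adjusted p = 0.00212) and by 3.73 ± 0.36 in ACT (adjusted p = 0.00111) against N. The ratio of mean TPM was 17.8 for ACT IL21 over N and 22.0 for ACT over N, and with a pseudocount of 5 the log2 fold changes were 2.25 and 2.48. The difference between ACT IL21 and ACT was -0.26 (95% interval -1.09 to 0.57, adjusted p = 0.788). The antisense gene Gm16015 and the intronic transcript gene Gm16014 overlap Cd38. On the same strand, the processed pseudogenes Gm16027 and Gm8783 and the intronic transcript gene AC166063.1 overlap Entpd1. The microRNA gene Mir8115 overlaps P2rx7.

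Art2b (chromosome 7, 101576970 to 101585600, minus strand, protein-coding), the ADP-ribosyltransferase gene, was the most abundant of the 8 genes in every pool. The ACT IL21 libraries had 175.66 and 176.70 TPM, the ACT libraries 310.09 and 316.16 TPM, and the N libraries 105.13 and 139.30 TPM. No pool overlapped another, with ACT highest and ACT IL21 between the others. Art2b rose in ACT against N (1.36 ± 0.17, adjusted p = 0.00301). In ACT IL21 the value against N was 0.54 ± 0.17 (adjusted p = 0.126). Against ACT it was -0.83 ± 0.17 (95% interval -1.21 to -0.44, adjusted p = 0.0541), just short of the threshold, and it passed in 5 of 17 alternative settings (adjusted p 0.0414 to 0.279). Because P2rx7 differed more, the Art2b level was 1.18 and 1.47 times that of P2rx7 in ACT IL21, 2.07 and 2.19 times in ACT, and 5.70 and 8.33 times in N.

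Art2b has a close copy, Art2a-ps (chromosome 7, 101552453 to 101560865, minus strand), annotated as a polymorphic pseudogene. Their coding regions matched at 758 of 862 aligned bases (87.9%). Of the 50-base words of the Art2b coding sequence, 15.1% occurred unchanged in the Art2a-ps transcript. Reads that fall within such shared stretches cannot be assigned with certainty, and the division of reads between the copies was not tested. The stretch below, from coding bases 451 to 513 of Art2b counted from its start codon and read 5′ to 3′ from the GENCODE M21 transcripts, is where the copy stops. Capitals mark codon 161.
Art2b: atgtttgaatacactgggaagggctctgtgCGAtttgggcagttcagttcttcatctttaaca
Art2a-ps: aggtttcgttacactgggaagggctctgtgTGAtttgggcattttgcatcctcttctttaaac
The change C481T turns that codon into a stop codon in Art2a-ps, and the copies differ at 14 of these 63 bases. Art2a-ps was at 72.69 and 83.96 TPM in ACT IL21, 112.15 and 164.70 TPM in ACT, and 8.41 and 17.95 TPM in N. Pools did not overlap, in the same order as for Art2b. It rose by 2.57 ± 0.34 in ACT IL21 (adjusted p = 0.00546) and by 3.36 ± 0.34 in ACT (adjusted p = 0.00138) against N. Its call in ACT IL21 was lost without ACT IL21 replicate 1 or ACT IL21 replicate 2 (highest adjusted p = 0.0631). The copy's level was 0.414 and 0.475 of the Art2b level in ACT IL21, 0.362 and 0.521 in ACT, and 0.080 and 0.129 in N. With both copies summed as 1 gene, a setting chosen after the values were seen, the log2 fold change was 0.92 in ACT IL21 against N (adjusted p = 0.0273), 1.75 in ACT against N (adjusted p = 0.00149) and -0.82 in ACT IL21 against ACT (adjusted p = 0.0716).

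**Figure D2:**
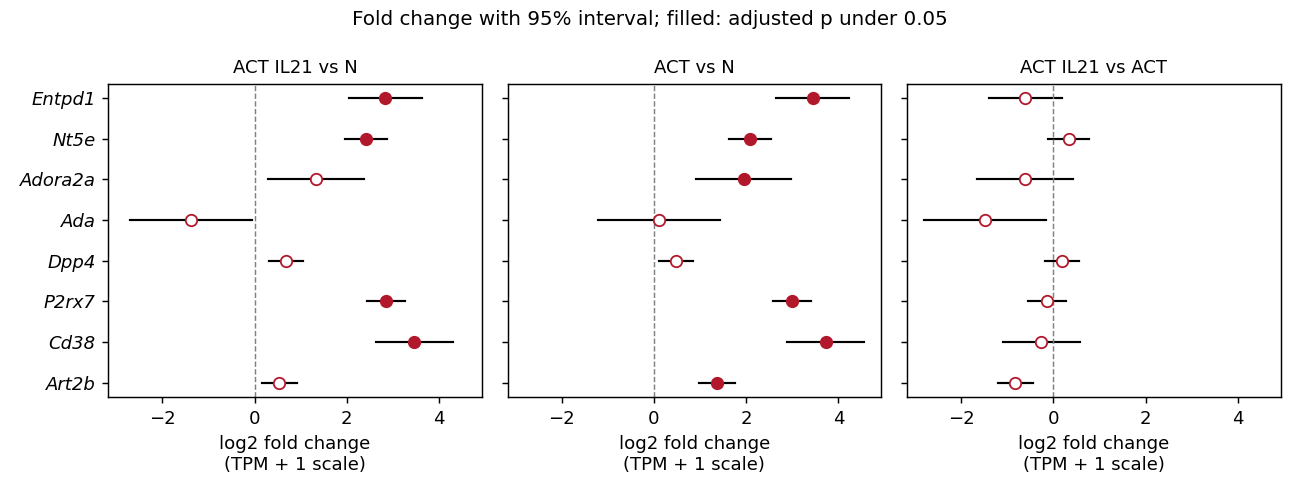
Log2 fold change on the log2(TPM + 1) scale (horizontal axis) of the 8 genes in the 3 comparisons, with bars for the 95% interval from limma and filled points where the adjusted p was under 0.05. P2rx7, Nt5e, Cd38 and Entpd1 are filled and to the right of 0 against N in both ICOS+ pools, Adora2a and Art2b are filled in ACT against N, and no point is filled between ACT IL21 and ACT.

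In a moderated F test over the 3 pools, 5 of the 8 genes differed, where 7.03% of all genes did: P2rx7, Nt5e, Cd38, Entpd1 and Art2b (adjusted p 0.000147 to 0.00621). The order of levels also changed between pools. In ACT IL21 and in ACT the genes ranked Art2b, P2rx7, Dpp4, Nt5e, Cd38, Adora2a, Entpd1 and Ada by mean TPM. In N they ranked Art2b, Dpp4, P2rx7, Nt5e, Ada, Adora2a, Cd38 and Entpd1. In ACT IL21 the neighbours Adora2a and Entpd1 overlapped, at 12.63 to 17.20 TPM and 13.02 to 14.60 TPM. Adora2a overlapped both Cd38 and Entpd1 in ACT. Ada overlapped Adora2a in N, and Cd38 overlapped Entpd1 there at 1.84 TPM or less, where single libraries are least certain.

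For each of these 5 genes, the tested genes of at least 5 TPM on average whose profile lay closest were found by the root mean square difference in log2(TPM + 1) over the 6 libraries, after centring each gene. Top2a, Ybx3 and Lgals1 were nearest to Nt5e, at 0.11 to 0.15. Atp2b4, Lgals3 and Bcl2a1b were nearest to Entpd1 (0.14 to 0.20), and Cd44, Atp2b4 and Prr13 to P2rx7 (0.12 to 0.20). Cd44, the adhesion receptor gene that marks antigen-experienced T cells, was at 220 TPM in ACT IL21, 214 in ACT and 24.6 in N on average. Nrn1, Klrb1f and Ahnak were nearest to Cd38, though less close, at 0.22 to 0.34. Akr1b10, Lpar6 and Ikzf3 were nearest to Art2b (0.09 to 0.12). These distances describe 6 libraries in 3 pools and carry no test.

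Markers of T cell states and subsets moved with the pools. Of all genes tested, 3.82% rose and 1.26% fell in ACT IL21 against N, and 4.15% rose and 1.43% fell in ACT against N. The 8 naive T cell markers summed to 2549 to 2656 TPM in ACT IL21, 2190 to 2352 TPM in ACT and 4922 to 5181 TPM in N, and against N 5 fell in ACT IL21 and 7 in ACT, with none higher. The summed level of 7 regulatory T cell markers was 463 to 478 TPM in ACT IL21, 840 to 937 TPM in ACT and 230 to 245 TPM in N. In ACT against N 6 of the 7 rose and none fell, and in ACT IL21 against N 2 rose and 3 fell. Foxp3, the defining regulatory T cell gene, was at 1.57 and 2.69 TPM in ACT IL21, 65.43 and 51.87 TPM in ACT, and 22.19 and 19.38 TPM in N, and it fell in ACT IL21 against N (-2.82, adjusted p = 0.00251). Regulatory T cells are known to carry CD39 and CD73. The others that fell in ACT IL21 against N were Il2ra (-2.66, adjusted p = 0.000816) and Lrrc32. Il2ra was at 7.16 and 8.48 TPM in ACT IL21, 123.51 and 125.37 in ACT, and 46.08 and 64.23 in N. Lrrc32 was at 0.38 and 1.97 TPM in ACT IL21, 23.18 and 14.05 in ACT, and 11.79 and 10.76 in N. Ctla4 and Ikzf2 rose in ACT IL21 against N (2.70, adjusted p = 0.00105, and 1.86, adjusted p = 0.0041). Ctla4 was at 253 ± 4.82 TPM in ACT IL21, 251 ± 86.1 in ACT and 38.4 ± 6.55 in N. Ikzf2 was at 87.7 ± 3.65 TPM in ACT IL21, 192 ± 26.8 in ACT and 23.8 ± 7.05 in N. In ACT the Foxp3 level rose against N (1.45, adjusted p = 0.0367). The part of regulatory T cells in the values of the 8 genes was not tested in either ICOS+ pool.

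NK or NKT cell markers, 7 genes, summed to 52.0 to 62.9 TPM in ACT IL21, 505 to 531 TPM in ACT and 44.1 to 47.4 TPM in N. Of the 6 that could be tested, 4 rose in ACT against N and none fell, and 1 rose and 1 fell in ACT IL21 against N. Over all genes tested, 4.15% rose and 1.43% fell in ACT against N, and 3.82% rose and 1.26% fell in ACT IL21. The 3 gamma delta T cell markers in the table summed to 62.2 to 64.0 TPM in ACT IL21, 449 to 625 TPM in ACT and 8.54 to 9.55 TPM in N, and 2 of them rose against N in each ICOS+ pool. Nearly all of the sum in ACT came from Tcrg-C1 (327.2 and 226.89 TPM) and Tcrg-C2 (293.94 and 221.8 TPM). Sox13 was at 3.97 and 0 TPM in ACT, and the listed gene Trdc was not in the table. The sums of both lists were lower in ACT IL21 than in ACT. Of the 8 genes, Entpd1, Adora2a, Ada, P2rx7, Cd38 and Art2b had a lower mean TPM in ACT IL21 than in ACT. Nt5e and Dpp4 had a higher mean there, and no difference passed the threshold. Libraries of ACT IL21 and ACT overlapped for Adora2a, P2rx7 and Cd38. The sort took CD4+ T cells, a gate that most gamma delta T cells and NK cells do not enter, and the part of such cells in any of these values was not tested. Of the 8 B cell markers, 6 stayed under 1 TPM in every library, and the sum was 14.4 to 20.2 TPM in ACT IL21, 4.26 to 6.04 TPM in ACT and 1.59 to 2.90 TPM in N. Cd22 was at 13.09 and 17.45 TPM in ACT IL21, 1.62 and 3.68 TPM in ACT, and 0 and 0.07 TPM in N. The 7 myeloid or dendritic cell markers in the table summed to 54.2 to 54.6 TPM in ACT IL21, 59.9 to 72.6 TPM in ACT and 29.7 to 36.5 TPM in N, most of it from Cst3. Follicular helper markers, 8 genes, summed to 473 to 497 TPM in ACT IL21, 165 to 185 TPM in ACT and 47.6 to 51.1 TPM in N, and 7 rose in ACT IL21 and 5 in ACT against N. The list includes Il21, at 44.48 and 51.87 TPM in ACT IL21. Cells of that pool were sorted on its reporter, so its part of the sum and of the 7 was set by the sort.

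**Figure D3:**
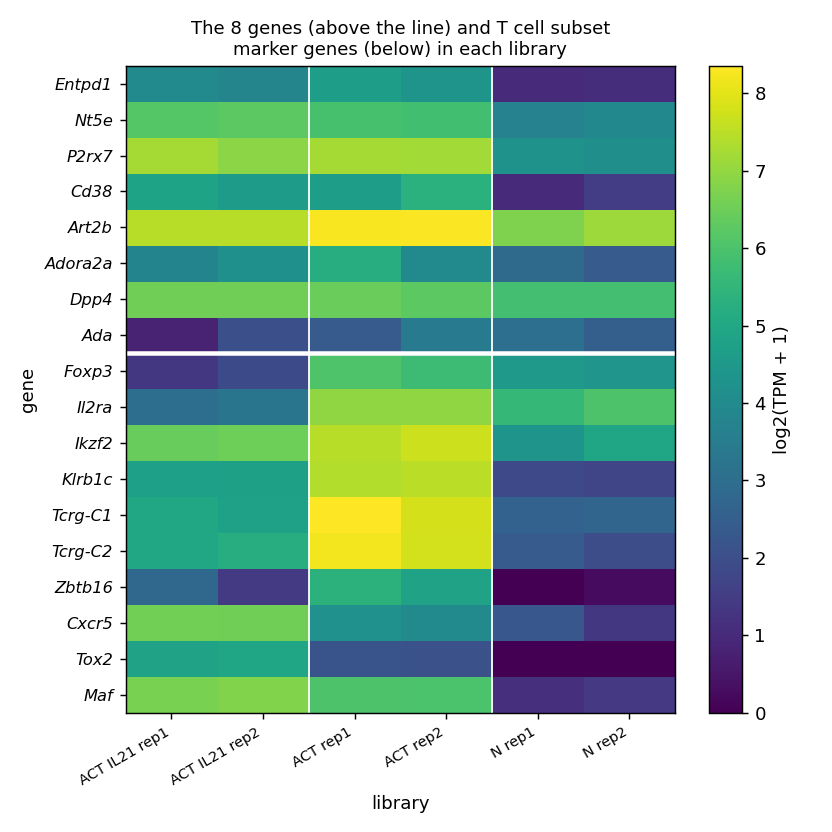
Log2(TPM + 1) by colour for the 8 genes (above the white line) and marker genes of regulatory, NK or NKT, gamma delta and follicular helper T cells (below) in each of the 6 libraries. The upper rows of Entpd1, Nt5e, P2rx7 and Cd38 are darker in N than in either ICOS+ pool, while Foxp3 and Il2ra are darkest in ACT IL21 and the Tcrg genes and Klrb1c are brightest in ACT.

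Of 86 other listed genes of purine and NAD handling, 58 could be tested and 11 were listed at 0 in all libraries. In ACT IL21 against N 2 of the 58 rose and 4 fell, where 3.82% of all genes tested rose and 1.26% fell, with a median log2 fold change of 0.22 against 0.10 for all genes tested. In ACT against N 4 rose and 2 fell, where 4.15% of all genes rose and 1.43% fell (median 0.08, all genes 0.02). In ACT IL21 against ACT 1 rose and 2 fell, where 0.796% of all genes rose and 1.15% fell (median 0.14, all genes 0.08). Leaving out 1 library leaves only 1 in its pool, which changes how many genes pass over all genes tested. A call lost that way does not by itself mark the library as deviant. In each comparison every called gene kept its direction with any 1 library left out. In ACT IL21 against N the log2 fold change then ranged from -2.23 to -1.62 for Enpp4 and from -2.32 to -1.93 for Adcy6. It ranged from -3.56 to -2.21 for Ampd1 and from -1.08 to -0.76 for Pde4d. The range was 2.06 to 3.07 for Art2a-ps and 4.04 to 5.35 for Casp1.

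Most other receptor genes were near or below the filter. Of 7 P2Y genes only P2ry14 could be tested, at 0 and 0.30 TPM in ACT IL21, 1.49 and 3.57 TPM in ACT, and 1.30 and 0.76 TPM in N, and it did not pass. None of the other 3 adenosine receptor genes passed the filter on low values. Among other ectonucleotidases, Enpp4, which encodes a surface phosphodiesterase, was at 3.02 and 5.17 TPM in ACT IL21, 27.91 and 19.33 TPM in ACT, and 17.16 and 18.68 TPM in N. The ACT IL21 libraries lay below all others. Enpp4 fell in ACT IL21 against N (-1.92 ± 0.35, adjusted p = 0.0203) and against ACT (-2.28 ± 0.35, adjusted p = 0.0206). The first call was lost without either N or either ACT IL21 replicate (highest adjusted p = 0.179), and the second without every library except ACT replicate 2 (highest adjusted p = 0.111).

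Casp1, which encodes the inflammasome protease activated downstream of P2X7 in macrophages, was well above N in both ICOS+ pools. Its level was 127.53 and 127.92 TPM in ACT IL21, 39.00 and 69.72 TPM in ACT, and 2.16 and 6.82 TPM in N. The 3 pools did not overlap, and the mean of ACT IL21 was highest, though ACT IL21 against ACT did not pass (1.28, adjusted p = 0.228). Casp1 rose by 4.69 ± 0.44 in ACT IL21 (adjusted p = 0.00129) and by 3.42 ± 0.44 in ACT (adjusted p = 0.00375) against N, and both calls held with any 1 library left out. The size rests on the N libraries: it was 4.04 and 2.77 without N replicate 1, and 5.35 and 4.07 without N replicate 2. The inflammasome sensor gene Nlrp3 was listed at 0 in 5 libraries and at 0.99 TPM in ACT IL21 replicate 2.

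Inside the cell, Ampd1, an AMP deaminase gene, was at 3.99 and 0.95 TPM in ACT IL21, 3.38 and 2.19 TPM in ACT, and 30.60 and 15.84 TPM in N. All ICOS+ libraries were below N, and it fell in ACT IL21 (-2.89, adjusted p = 0.0266) and in ACT (-2.63, adjusted p = 0.0367). The ACT IL21 call was lost without N replicate 1, N replicate 2 or ACT IL21 replicate 2, and the ACT call without either N or either ACT replicate. The ACT IL21 value was -2.21 without ACT IL21 replicate 2 and -3.56 without ACT IL21 replicate 1. Adk, the adenosine kinase gene, was at 41.5 ± 1.17 TPM in ACT IL21, 17.4 ± 1.41 in ACT and 22.4 ± 3.85 in N, and rose in ACT IL21 against ACT (1.21, adjusted p = 0.0471), a call lost with any 1 library left out (highest adjusted p = 0.236). Pnp, the purine nucleoside phosphorylase gene that follows Ada in adenosine breakdown, was at 54.9 ± 5.19 TPM in ACT IL21, 68.1 ± 0.438 in ACT and 35.0 ± 0.403 in N. It rose in ACT against N (0.94, adjusted p = 0.0212), which was lost without either N or either ACT replicate.

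Of 12 cAMP genes below adenosine receptors, none rose and 2 fell in ACT IL21 against N, where 3.82% of all genes rose and 1.26% fell. In ACT against N 1 rose and 1 fell, where 4.15% of all genes rose and 1.43% fell. Pde4d was at 54.4 ± 4.73 TPM in ACT IL21, 47.5 ± 2.11 in ACT and 104 ± 16.1 in N, and fell against N in ACT IL21 (-0.92, adjusted p = 0.0299) and in ACT (-1.11, adjusted p = 0.0128). Pde7a was at 77.9 ± 4.43 TPM in ACT IL21, 94.5 ± 9.41 in ACT and 50.8 ± 5.48 in N. It rose in ACT against N (0.88, adjusted p = 0.0259) and did not pass in ACT IL21 against N (0.61, adjusted p = 0.101). Pde3b was at 55.5 ± 4.00 TPM in ACT IL21 and 125 ± 0.658 in ACT, with 86.9 ± 12.4 in N, and fell in ACT IL21 against ACT (-1.16, adjusted p = 0.0175). The cyclase gene Adcy6 was at 2.25 ± 0.127 TPM in ACT IL21, 4.28 ± 1.29 in ACT and 13.3 ± 2.73 in N. It fell in ACT IL21 against N (-2.13, adjusted p = 0.0231). Its value in ACT against N was -1.45 (adjusted p = 0.0852), which did not pass. ACT IL21 against ACT did not pass either (-0.68, adjusted p = 0.483). Each of these 4 genes lost its calls without at least 2 of the single libraries: Pde4d without either N replicate, and in ACT IL21 also without either ACT IL21 replicate, Adcy6 without either N or either ACT IL21 replicate, Pde3b without ACT replicate 1 or either ACT IL21 replicate, and Pde7a without every library except ACT replicate 1. The most abundant listed genes that passed nowhere were Gnas, which encodes the stimulatory G protein, Prkar1a, a protein kinase A regulatory subunit gene, Hprt and the nucleoside transporter gene Slc28a2. Gnas was at 604 ± 13.4 TPM in ACT IL21, 636 ± 85.6 in ACT and 522 ± 17.3 in N.

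**Figure D4:**
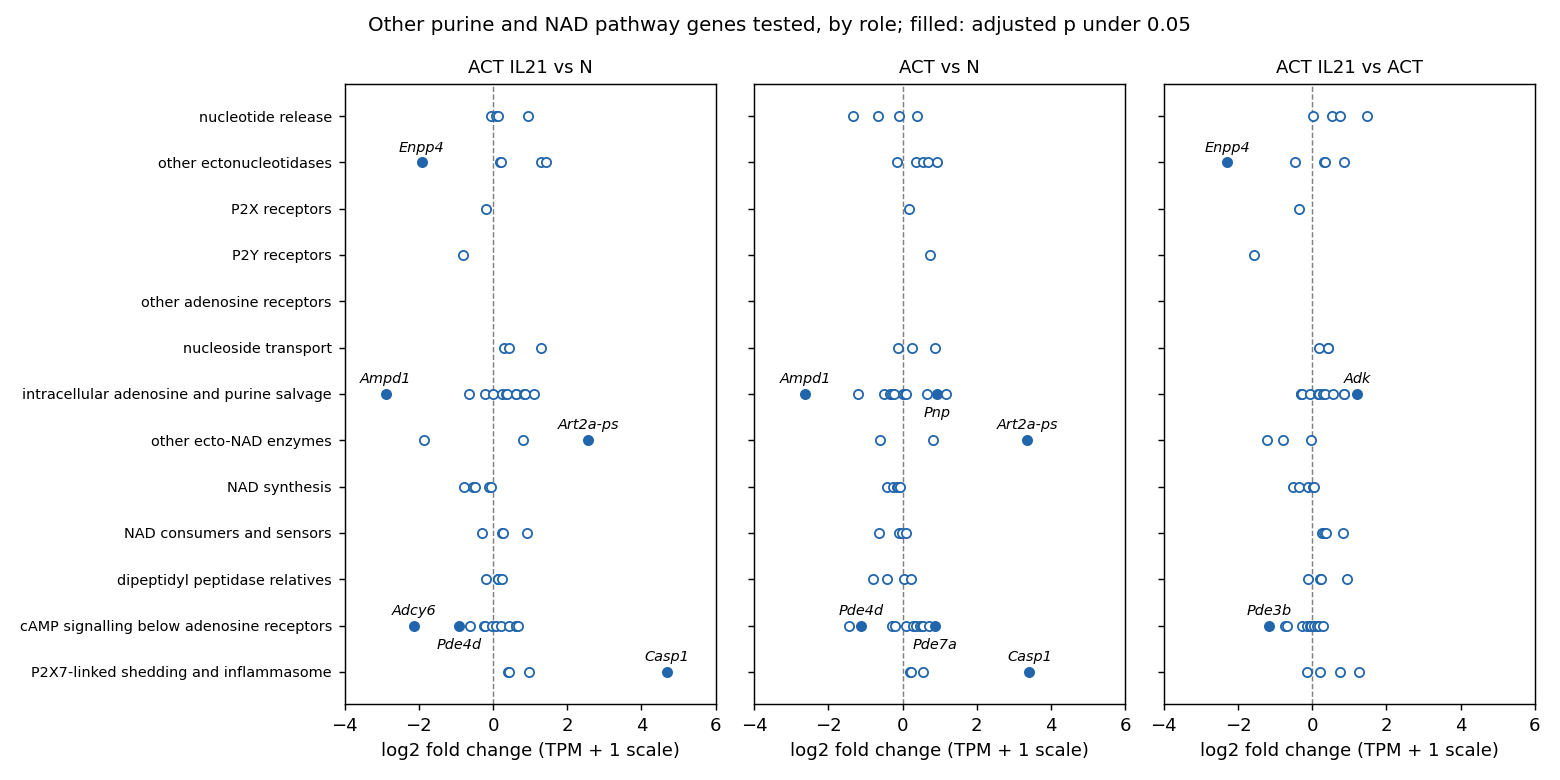
Log2 fold change on the log2(TPM + 1) scale (horizontal axis) of the 58 other pathway genes tested, in rows by role, for the 3 comparisons, with filled and named points where the adjusted p was under 0.05. Most points lie close to 0, with Casp1 and Art2a-ps far to the right against N in both ICOS+ pools and Enpp4 to the left in both comparisons of ACT IL21.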

How the data were processed

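The values are TPM (transcript abundance scaled to a fixed total) per gene and library, deposited by the authors in 1 table of 6 columns. The submitters' processing notes name Trimmomatic, Bowtie, RSEM and GRCm38 but no versions, and RNA was extracted with Qiagen RNeasy and amplified with the NuGEN Ovation kit after poly-A enrichment, per the labels' protocols. TPM keeps no read number, so depth is unknown and no counting interval is given. RSEM estimates how shared reads divide among similar genes, which leaves near-identical copies uncertain. Because the total is fixed, each level depends on all others.

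The table had 38355 entries, of which 139 with a repeated symbol were summed, leaving 38216 symbols. Genes of at least 1 TPM in at least 2 libraries (13311) entered limma 3.58.1 (R 4.3.3) as log2(TPM + 1), all 3 pools in 1 model with an intensity trend, two-sided, with 3 residual and 4.841 prior degrees of freedom. Benjamini-Hochberg adjustment ran over all tested genes within a comparison, and calls needed an adjusted p under 0.05. Coordinates are from GENCODE M21 (GRCm38), and 7 of the 8 genes had a RefSeq promoter. Alternatives changed the pseudocount, filter, scaling, spread, samples and pairing. The genes and lists were chosen with earlier results of these data known. The 8 genes, the listed pathway genes past the threshold (at most 8 per comparison), the 4 most abundant that were not, and the 3 nearest profiles of each gene past the F test are named. P2rx4, P2ry14 and Nlrp3 were named after their values were seen. So were the subset markers Foxp3, Il2ra, Lrrc32, Ctla4, Ikzf2, Tcrg-C1, Tcrg-C2, Sox13, Cd22, Cst3 and Pax5.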

Additional observations from a re-analysis of the deposited data

How the results depend on the processing

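The calls of P2rx7, Nt5e, Cd38 and Entpd1 against N in both ICOS+ pools, and of Art2b in ACT, held under all 17 alternatives. With single libraries left out, the number of the 8 genes called was 4 to 5 in ACT IL21 against N, 5 to 6 in ACT against N and 0 to 0 between ACT IL21 and ACT, and 5 to 6 differed among the 3 pools (4 without an intensity trend). For the other pathway genes these ranges were 1 to 10, 2 to 5 and 0 to 2. Between ACT IL21 and ACT, 1 of the 8 genes, Art2b, was called with a pseudocount of 5, a filter of 5 TPM, quantile normalization, rescaling without ribosomal and receptor genes, or the replicate number as a block (1 in each, adjusted p 0.0414 to 0.0465). The number of other pathway genes called in ACT IL21 against N was 2 without a filter and 11 with only the 2 pools compared. It was 2 in ACT against N without an intensity trend. Between ACT IL21 and ACT it was 1 without a filter, 1 without an intensity trend and 1 with only the 2 pools. The cause was not tested.

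Values that turned direction had not passed. Ada in ACT against N was -0.0081 with quantile normalization, and -0.15 without N replicate 2 and -0.39 without ACT replicate 2, within a range of -0.39 to 0.61 over single libraries left out. Between ACT IL21 and ACT, P2rx7 was 0.0146 without ACT IL21 replicate 2 (range -0.29 to 0.0146) and Cd38 was 0.0758 without ACT replicate 2 (range -0.60 to 0.0758). Quantile normalization moved the median of all genes by -0.15 in ACT IL21 against N. The replicate numbers share no stated animal or day, and deviations of replicate 1 correlated across 13311 genes at -0.004 to 0.21 between pools. Besides Art2b, the replicate block changed no call of the 8 genes; it kept the other pathway counts against N at 6 and 6 and gave 2 between ACT IL21 and ACT. Over all genes, the 677, 743 and 259 calls of the 3 comparisons became 169 to 903, 260 to 678 and 32 to 202 with single libraries left out, and 410 to 881, 469 to 784 and 124 to 312 under the other alternatives. With 2 libraries a pool and unknown depth, small changes and genes near 1 TPM are the least certain.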
